A study of Mus musculus with 26 samples.

Results

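Growth arrest and early growth genes were followed in the livers of leptin-deficient mice that had or had not been given leptin. The set holds 10 genes: the cyclins Ccnd1 and Ccng1, the transcription factors Myc and Ets2, the cyclin-dependent kinase inhibitor Cdkn1a, the stress-induced Gadd45a, Gadd45b and Gadd45g, and the antiproliferative Btg1 and Btg2. Members were the probes whose symbol in the array annotation is 1 of these names and whose detection p, the chance of such a signal on a blank probe, was under 0.01 on at least 4 arrays. This left 17 of their 22 probes and 8 of the 10 genes, out of 11001 tested probes among 25697 on the array. Neither Myc nor Btg2 had a tested probe. The remaining genes each stand by the tested probe with the highest mean, as do the 7953 genes with a tested probe over the whole array.

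Liver RNA of 26 mice was read on Illumina bead arrays, 1 mouse to an array. The ob/ob mice make no working leptin, the fat-derived hormone that lowers food intake. They were females of 15 weeks on the C57BL6 background, infused by pump for 12 days. LEP-SQ mice (4) received 10 µg/d leptin under the skin and VEH-SQ mice (4) saline by that route. LEP-ICV mice (4) received 1.5 µg/d leptin into a brain ventricle and lost weight. LEP-ICV* mice (4) were assigned this treatment, and the study called their weight loss negligible. VEH-ICV mice (4) received artificial cerebrospinal fluid. The position of the cannula was not established for at least some LEP-ICV* mice, so whether leptin reached the brain in each of them is not known. The 6 B6 mice are C57BL6 animals labelled as baseline, whose sex and age are not given in the sources used here. Mice carry the names of the deposited columns, with LEP_ICVN for LEP-ICV*. All levels are log2 normalized signals and all differences are log2 differences, so that 1 stands for a doubling, with the standard error given as SE. A gene was called where limma's moderated test gave an adjusted p under 0.05 (Benjamini-Hochberg, over all tested probes).

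Cyclin D1, the product of Ccnd1, joins the kinases that carry a cell out of G1, and its transcript is induced when hepatocytes enter the cycle. Cdkn1a encodes p21, which blocks cyclin-dependent kinases and is the best known p53 target. Gadd45 proteins are small partners of stress kinases and of PCNA, and Btg proteins slow division and recruit the CCR4-NOT deadenylase to messages. Myc and Ets2 are transcription factors of the early growth response. In liver these genes are known from regeneration, where drivers and brakes of the cycle are induced side by side.

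The arrays fell into 2 classes by background, the median raw signal of the probes not detected on an array. It was 108.3 to 126.2 on 12 arrays and 162.8 to 202.7 on 14. All LEP-SQ and B6 arrays were in the high class and all VEH-SQ and VEH-ICV arrays in the low class, and 2 mice each of LEP-ICV and LEP-ICV* fell in either class. Class and treatment therefore cannot be told apart in LEP-SQ against VEH-SQ or in vehicle-treated ob/ob against B6. A second fit held the class as a block, and its values are given as blocked. Only LEP-ICV and LEP-ICV* held both classes, so their arrays alone set the class effect. A call lost in the blocked fit therefore does not show equal levels. Of 8 hepatocyte markers 6 were tested (Apob and Tat were not), and their summed level was 16.80 to 16.97 in LEP-SQ against 17.25 to 17.37 in VEH-SQ, and 17.32 to 17.42 in VEH-ICV against 16.72 to 16.91 in B6, without overlap in either pair. It was 16.65 to 17.46 in LEP-ICV and 16.67 to 17.48 in LEP-ICV*. Of the 6 markers 1 was higher and 3 lower in LEP-SQ against VEH-SQ, 0 higher and 1 lower in LEP-ICV against VEH-ICV (2 lower in the blocked fit), and 4 higher and 1 lower in vehicle-treated ob/ob against B6. Their part in the differences of the growth genes was not tested. Of 13 macrophage and Kupffer cell markers 10 were tested (Cd68, Csf1r and Cd5l were not), and their summed level was 13.50 to 14.51 in LEP-ICV, above every other mouse (LEP-ICV* 11.82 to 12.46, VEH-ICV 11.79 to 12.52, LEP-SQ 12.35 to 12.77, VEH-SQ 11.99 to 12.81, B6 12.25 to 13.18). In whole tissue, more cells of a type and more RNA per cell cannot be told apart.

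In mice that lost weight on central leptin, Ccnd1, Ets2 and Gadd45b were higher as compared to vehicle by the same route. Ccnd1 was 4.24-fold higher, Ets2 2.50-fold and Gadd45b at least 1.05-fold, and no LEP-ICV value of these genes overlapped a VEH-ICV value. How many of all genes also did not overlap was not counted. Cdkn1a and Gadd45a were also called higher, but neither in the blocked fit nor when all probes on the array were tested. Gadd45b was detected on 5 arrays, all 4 of LEP-ICV among them, so it passed the filter through the group in which it was high and had to differ there. Its adjusted p is therefore given from the fit of all probes without the filter, and counts are given without it. Of the other 7 genes, 4 were higher and 0 lower, where 13.5% of all genes were higher and 11.5% lower, and the median difference was 1.32 over the 7 genes and 0.0099 over all genes. In the blocked fit 2 of the 7 were higher and 0 lower, where 576 of the 7953 genes were higher and 423 lower. The study had listed Ets2 from its regression on weight loss in these arrays. Its calls, and counts that include it, are therefore not independent evidence, and the members were chosen with earlier results known.

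**Figure D1:**
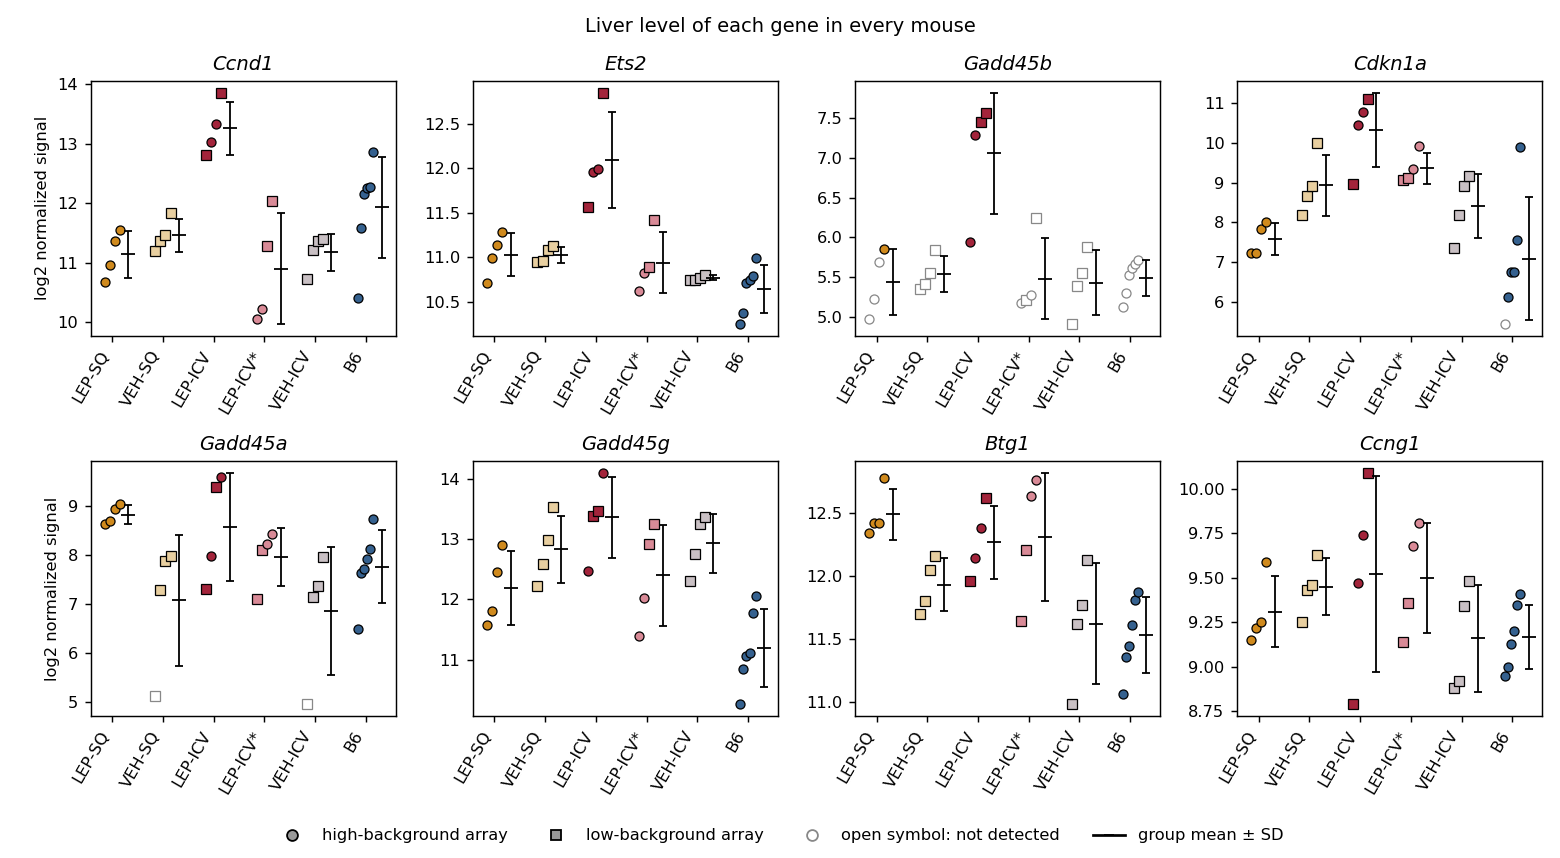
Log2 normalized signal (y axis) of the 8 genes with a tested probe in each of the 26 mice, by group (x axis). Circles are high-background and squares low-background arrays, open symbols arrays on which the probe was not detected, and black bars the group mean ± SD. The 4 LEP-ICV mice lie above all other ob/ob mice for Ccnd1 and Ets2.

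Ccnd1 stood at 12.81, 13.86, 13.03 and 13.34 in the LEP-ICV mice, against 11.22, 11.40, 10.72 and 11.37 in the VEH-ICV mice. All LEP-ICV mice were higher, by 2.08 (SE 0.42, adjusted p = 0.0013, blocked 2.50 and adjusted p = 0.00053). Its second probe, ILMN_2601471, followed the first (r = 0.996 over 26 arrays) and differed by 2.02 (SE 0.40, adjusted p = 0.0010). Over the low-background arrays, which hold 2 LEP-ICV mice and all 4 VEH-ICV mice, the difference of Ccnd1 was 2.16 (SE 0.34, adjusted p = 0.0075). Across groups Ccnd1 averaged 13.26 ± 0.45 (LEP-ICV), 11.93 ± 0.85 (B6), 11.46 ± 0.27 (VEH-SQ), 11.18 ± 0.31 (VEH-ICV), 11.14 ± 0.39 (LEP-SQ) and 10.90 ± 0.93 (LEP-ICV*), with the SD over 6 B6 mice and 4 mice elsewhere. Neighbours in this order overlapped, LEP-ICV and B6 only through B6_5541 at 12.87.

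Ets2, an ETS-domain factor downstream of Ras and MAP kinase signals, was at 11.57, 12.85, 11.99 and 11.96 in LEP-ICV, against 10.77, 10.75, 10.80 and 10.75 in VEH-ICV. The VEH-ICV mice lay within 0.05 of each other and every LEP-ICV mouse was higher, by 1.32 (SE 0.23, adjusted p = 3e-04, blocked 1.49 and adjusted p = 0.00025). Within the low-background arrays the difference of Ets2 was 1.44 (SE 0.30, adjusted p = 0.027). The group means of Ets2 ran down from 12.09 ± 0.54 (LEP-ICV) through 11.03 ± 0.24 (LEP-SQ), 11.03 ± 0.09 (VEH-SQ), 10.94 ± 0.34 (LEP-ICV*) and 10.77 ± 0.03 (VEH-ICV) to 10.64 ± 0.27 (B6), each with its SD. Every neighbouring pair below LEP-ICV overlapped, and LEP-ICV overlapped no other ob/ob group.

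Gadd45b, whose protein binds stress kinases and which is induced early in regenerating mouse liver, was at 7.56, 7.45, 5.94 and 7.29 in LEP-ICV, against 5.39, 5.88, 5.55 and 4.91 in VEH-ICV. It was detected in 4 of 4 LEP-ICV mice, 1 of 4 LEP-SQ mice and no other mouse. LEP_ICV_1017 lay close to the undetected arrays and the other 3 well above them. The fitted difference was 1.63 (SE 0.30, adjusted p = 0.0014 over all probes), blocked 1.98, and 2.08 within the low-background arrays. On the authors' variance-stabilized log2 scale the difference of Gadd45b was 0.23 (adjusted p = 0.0030). Because no VEH-ICV array detected Gadd45b, its change has only a bound, set against the lowest detected signal of each array. Such a bound applies only to the scale used here, not to that of the authors.

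Cdkn1a was at 8.97, 11.11, 10.78 and 10.46 in LEP-ICV, against 9.16, 8.20, 7.36 and 8.92 in VEH-ICV. The groups overlapped through LEP_ICV_1003, and the difference was 1.92 (SE 0.64, adjusted p = 0.034). The second probe of Cdkn1a, ILMN_2846775, gave 1.34 (SE 0.45, adjusted p = 0.034). Blocked, the values were 1.64 (adjusted p = 0.16) and 1.45 (adjusted p = 0.064). Leaving out 1 mouse at a time, Cdkn1a was not called without VEH_ICV_1010 (1.85, adjusted p = 0.075), VEH_ICV_1011 (1.57, 0.11), LEP_ICV_1014 (1.66, 0.10), LEP_ICV_1017 (1.77, 0.096) or LEP_ICV_1019 (1.88, 0.055).

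Gadd45a, a p53 and stress target whose protein binds PCNA, was at 7.32, 9.39, 9.60 and 7.99 in LEP-ICV, against 7.14, 7.37, 7.97 and 4.96 in VEH-ICV. The lowest value, VEH_ICV_1012, was on an array that did not detect the probe. That array detected the fewest probes of the VEH-ICV arrays (7059, the others 7578 to 7992). LEP_ICV_1003 and LEP_ICV_1019 were near the upper vehicle mice. The difference was 1.72 (SE 0.62, adjusted p = 0.048, blocked 1.43 and adjusted p = 0.21). Gadd45a was not called without VEH_ICV_1012 (1.08, adjusted p = 0.20), VEH_ICV_1002 (1.81, 0.059), VEH_ICV_1010 (1.89, 0.061), LEP_ICV_1014 (1.44, 0.14) or LEP_ICV_1017 (1.37, 0.17). Its other probe, ILMN_2947568, differed by 0.97 (adjusted p = 0.048, blocked 0.87 and adjusted p = 0.18).

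The other genes did not pass the test by their brightest probe. Gadd45g, the bright member of its family on these arrays, averaged 13.36 ± 0.67 in LEP-ICV and 12.93 ± 0.49 in VEH-ICV (difference 0.43, 95% interval -0.46 to 1.32, adjusted p = 0.47). Btg1 averaged 12.27 ± 0.29 in LEP-ICV and 11.62 ± 0.48 in VEH-ICV (difference 0.65, interval 0.13 to 1.17 before adjustment, adjusted p = 0.063). Ccng1, a cyclin under p53 control with no clear part in driving the cycle, averaged 9.52 ± 0.55 in LEP-ICV and 9.16 ± 0.30 in VEH-ICV (difference 0.37, interval -0.10 to 0.83, adjusted p = 0.23). Dimmer probes of both were called in LEP-ICV against VEH-ICV, with overlap between the groups: ILMN_2866185 of Btg1 by 1.33 (adjusted p = 0.0088, blocked 0.78 and adjusted p = 0.094) and ILMN_2710229 of Ccng1 by 1.84 (adjusted p = 0.029, blocked 0.70 and adjusted p = 0.33).

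Ccnd1 and Ets2 also separated mice assigned the same central infusion by weight loss. Both were higher in LEP-ICV than in LEP-ICV*, as was Gadd45b with an overlap, and no other member was called. Without Gadd45b this is 2 of 7 genes higher and 0 lower. Among all genes 4.89% were higher and 3.13% lower. Ccnd1 was at 10.23, 12.04, 10.05 and 11.28 in the LEP-ICV* mice, below each of the LEP-ICV values given above, and differed by 2.36 (SE 0.42, adjusted p = 0.00076). Ets2 was at 10.62, 11.42, 10.82 and 10.89 in LEP-ICV*, again below every LEP-ICV mouse, with a difference of 1.16 (SE 0.23, adjusted p = 0.0019). Gadd45b was not detected in any LEP-ICV* mouse (5.28, 6.25, 5.17 and 5.21) and was at least 1.59-fold higher in LEP-ICV (fitted difference 1.58, SE 0.30, adjusted p = 0.0033 over all probes). The authors' scale gave 0.22 for Gadd45b (adjusted p = 0.0087), below that bound. LEP_ICVN_1004 lay above LEP_ICV_1017 for Gadd45b.

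Each background class held 2 mice of each group. Ccnd1 and Ets2 did not overlap between the groups, so their direction had to be the same in both classes. Gadd45b had the same direction in both, but had passed the filter through LEP-ICV. The shared direction is therefore not support. On high-background arrays Ccnd1 differed by 3.04 (adjusted p = 0.0072), Ets2 by 1.26 (adjusted p = 0.014) and Gadd45b by 1.39. On low-background arrays Ccnd1 differed by 1.67 (adjusted p = 0.11), Ets2 by 1.06 (adjusted p = 0.22) and Gadd45b by 1.78. A fit of these 8 arrays alone called none of the 3, with adjusted p of 0.10 for Ccnd1, 0.24 for Ets2 and 0.20 for Gadd45b. Cdkn1a differed by 0.96 (95% interval -0.37 to 2.29, adjusted p = 0.45), Gadd45g by 0.96 (0.07 to 1.85, adjusted p = 0.21) and Gadd45a by 0.61 (-0.68 to 1.89, adjusted p = 0.67).

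LEP-ICV* mice did not differ from VEH-ICV mice in any member by limma at adjusted p, and 0% of all genes were higher and 0% lower. At an unadjusted p under 0.05 there were 2050 of the 7953 genes, among them 1 member, Btg1. Btg1 differed by 0.69 (SE 0.25, adjusted p = 0.16), and by 0.91 without LEP_ICVN_1016, where it was called (adjusted p = 0.026). Ccnd1 differed by -0.28 (95% interval -1.14 to 0.59), Ets2 by 0.17 (-0.30 to 0.64) and Cdkn1a by 0.96 (-0.37 to 2.29).

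**Figure D2:**
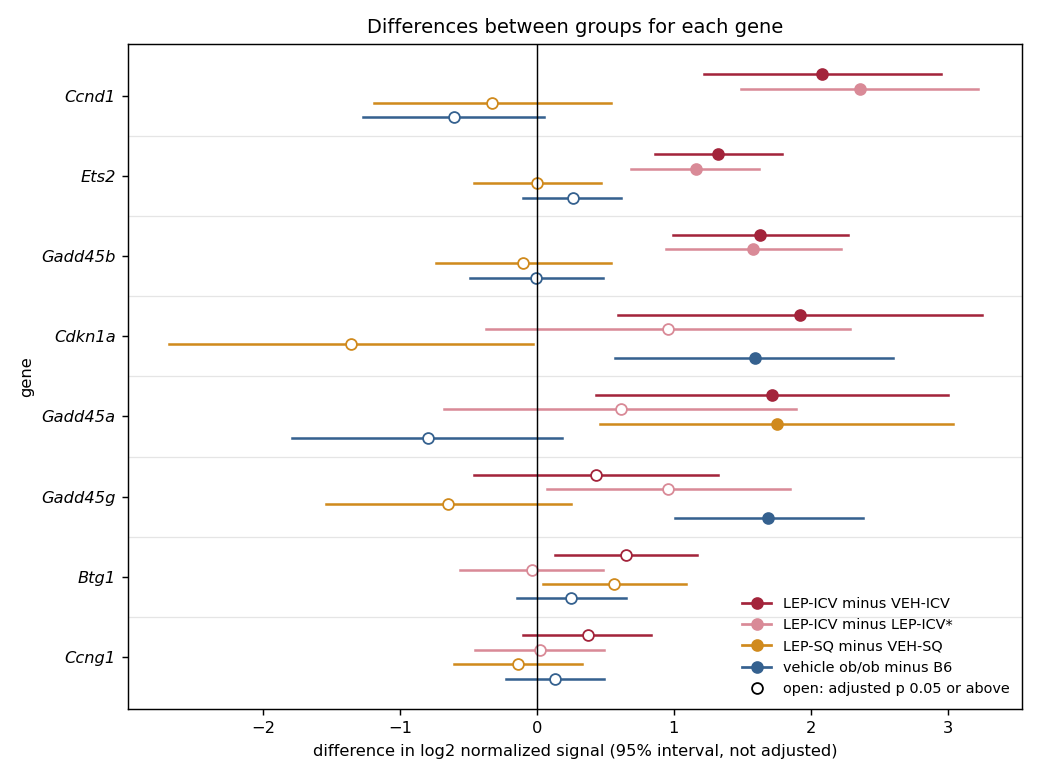
Difference in log2 normalized signal (x axis) of each gene (y axis) in 4 comparisons, with 95% intervals not adjusted for multiple testing. Filled points passed an adjusted p of 0.05: Ccnd1, Ets2 and Gadd45b did so in LEP-ICV against both VEH-ICV and LEP-ICV*, and none of these 3 in LEP-SQ against VEH-SQ or vehicle ob/ob against B6. Gadd45b passed the detection filter through LEP-ICV, and its points use the adjusted p of the filtered fit.

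Macrophage markers moved with the same mice. Of the 10 tested, 9 were higher and 0 lower in LEP-ICV than in VEH-ICV (median difference 1.90), and 8 were higher and 0 lower in LEP-ICV than in LEP-ICV* (median difference 1.30). LEP_ICV_1014 had the highest summed level of these markers (14.51) and the highest Ccnd1, Ets2 and Cdkn1a of all mice. Gadd45b was highest in LEP_ICV_1003 (7.56, marker level 13.64), where Cdkn1a was lowest among the LEP-ICV mice (8.97). LEP_ICV_1019 had the lowest marker level of that group (13.5), with Cdkn1a at 10.46. The part of these markers in the changes of the growth genes was not tested. The study had listed C1qb, Gpnmb and Mmp12 from its regression on weight loss in these arrays, so the marker counts are not independent evidence.

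**Figure D3:**
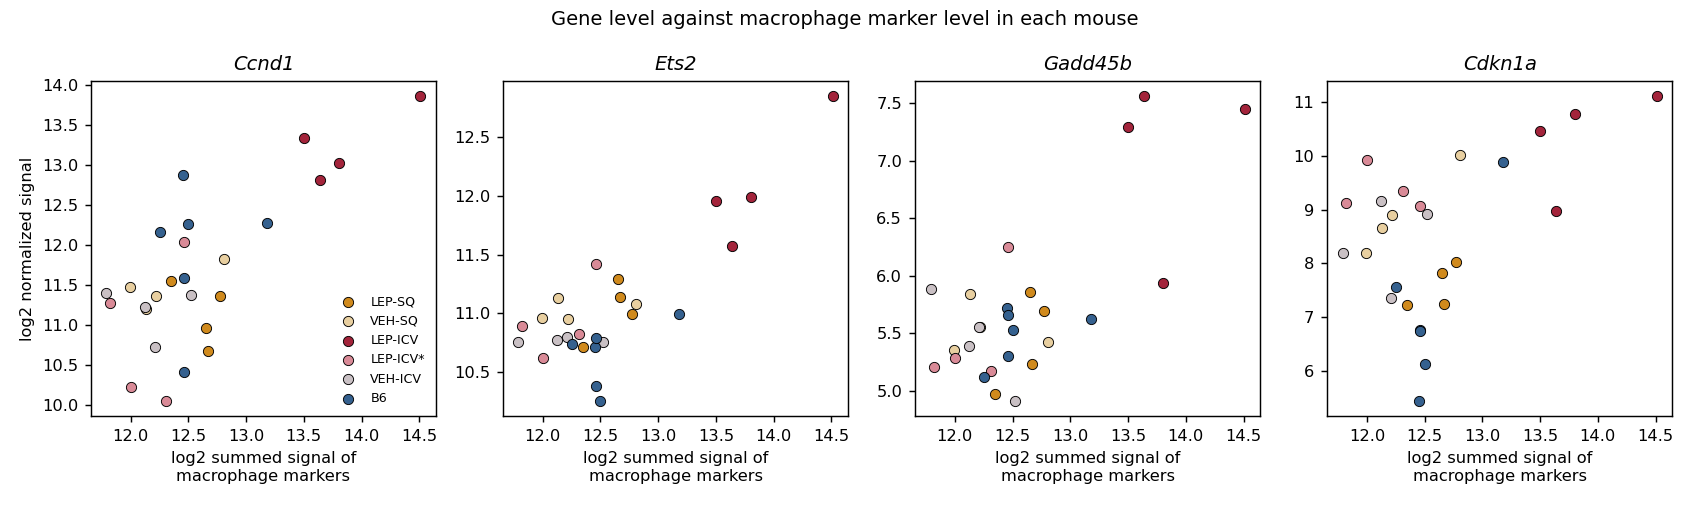
Log2 normalized signal of Ccnd1, Ets2, Gadd45b and Cdkn1a (y axes) against the log2 summed signal of 10 macrophage and Kupffer cell markers (x axes), 1 point per mouse coloured by group. The 4 LEP-ICV mice, at 13.50 to 14.51, lie to the right of all other mice.

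For Ets2, Gadd45b and Cdkn1a, called higher in LEP-ICV than in VEH-ICV, the sequence around the start of transcription is shown as context. The Cdkn1a call did not hold in the blocked fit, and Gadd45a, called likewise, is not shown. RefSeq windows (GRCm38.p6) of 250 bases before to 50 after a start were at hand for 8 of the 10 genes, among them Ets2, Gadd45b and Cdkn1a. Ccnd1 and Myc had none. The windows were searched on both strands for 8 motifs, and matches are in capitals: the GC box with letters GGGCGG, the CCAAT box, the E-box with letters CACGTG, the TATA box with letters TATAAA, the cAMP response element with letters TGACGTCA, the AP-1 site with letters TGANTCA, the STAT site with letters TTCNNNGAA and the core of the amino acid response element with letters TGATGNAA. A match on the other strand stands as its reverse complement. The windows shown are Ets2 (chr16:95702157-95702456, plus strand), Gadd45b (chr10:80929841-80930140, plus strand) and the second of the 2 Cdkn1a starts (chr17:29093519-29093818, plus strand).
Ets2: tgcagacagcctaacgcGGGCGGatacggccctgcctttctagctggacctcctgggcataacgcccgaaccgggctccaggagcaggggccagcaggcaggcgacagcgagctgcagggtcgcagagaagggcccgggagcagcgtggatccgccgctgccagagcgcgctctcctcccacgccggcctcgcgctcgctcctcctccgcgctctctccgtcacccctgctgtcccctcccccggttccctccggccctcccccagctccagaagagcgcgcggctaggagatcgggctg
Gadd45b: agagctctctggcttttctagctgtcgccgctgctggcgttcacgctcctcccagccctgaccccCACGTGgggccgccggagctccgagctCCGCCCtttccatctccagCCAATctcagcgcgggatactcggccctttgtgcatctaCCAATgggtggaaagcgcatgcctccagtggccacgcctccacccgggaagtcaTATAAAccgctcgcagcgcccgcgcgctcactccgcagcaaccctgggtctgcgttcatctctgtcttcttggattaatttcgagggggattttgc
Cdkn1a: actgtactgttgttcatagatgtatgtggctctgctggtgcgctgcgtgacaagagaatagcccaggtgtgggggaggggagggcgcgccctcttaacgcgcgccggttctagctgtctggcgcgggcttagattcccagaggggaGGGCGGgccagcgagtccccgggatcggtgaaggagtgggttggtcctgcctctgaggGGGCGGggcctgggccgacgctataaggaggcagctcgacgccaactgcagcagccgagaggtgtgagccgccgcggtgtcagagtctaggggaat
The Ets2 window held 1 GC box and no other of the 8 motifs, and the Cdkn1a window shown 2 GC boxes. The window of the first Cdkn1a start, not shown, held no match to any of the 8 motifs. Gadd45b held 1 E-box, 2 CCAAT boxes, 1 GC box and 1 TATA box. Over all 32851 windows the shares with at least 1 match were 35.7% for the GC box, 37.4% for the CCAAT box, 13.6% for the TATA box and 7.15% for the E-box. The STAT site, found in 8.30% of all windows, and the AP-1 site, in 7.81%, had no match in any of the 9 windows of the members. A match here is a description of letters.

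Under peripheral leptin, in LEP-SQ against VEH-SQ, 1 of the 8 genes was higher by its brightest probe (Gadd45a) and 0 lower. Among all genes 19.1% were higher and 21% lower, and the 8 genes were not tested against these shares. With the class as a block no member was called, and 8 genes were higher and 14 lower over the whole array. Gadd45a was at 8.94, 8.64, 8.69 and 9.04 in LEP-SQ, against 7.99, 5.13, 7.30 and 7.89 in VEH-SQ. All LEP-SQ mice were higher, by 1.75 (SE 0.62, adjusted p = 0.029, blocked 1.17 and adjusted p = 0.79). VEH_SQ_1034 detected the fewest probes of all arrays (6786, the other VEH-SQ arrays 8358 to 8516), and Gadd45a was not among them. Without this array the difference of Gadd45a was 1.10 (adjusted p = 0.14). Without LEP_SQ_1029, LEP_SQ_1039 or LEP_SQ_1041 it was 1.71, 1.80 and 1.68 (adjusted p = 0.058, 0.050 and 0.066). The other Gadd45a probe, ILMN_2947568, differed by 0.61 (SE 0.35, adjusted p = 0.16).

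Cdkn1a was at 8.02, 7.23, 7.24 and 7.83 in LEP-SQ, against 8.20, 10.01, 8.91 and 8.66 in VEH-SQ. Every LEP-SQ mouse was below every VEH-SQ mouse, but the difference of -1.36 did not pass the test (SE 0.64, adjusted p = 0.089). Its probe ILMN_2846775 was called lower, by -1.58 (SE 0.45, adjusted p = 0.0098, blocked -1.34 and adjusted p = 0.67). Set against the 2 LEP-ICV* mice with high-background arrays in place of VEH-SQ, Cdkn1a differed by -2.06 in LEP-SQ (SE 0.84, adjusted p = 0.77). Ccnd1 (difference -0.33, 95% interval -1.19 to 0.54), Ets2 (0.00, -0.46 to 0.47) and Gadd45b (-0.10, -0.74 to 0.54) were not called in LEP-SQ against VEH-SQ. Scaling each array to its median moved the median of all genes to 0.56 in LEP-SQ against VEH-SQ (-0.043 with quantiles), and there Ccnd1 (0.29) and Gadd45b (0.04) had the opposite sign, again not called.

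The difference between routes, that is LEP-ICV minus VEH-ICV less LEP-SQ minus VEH-SQ, was called for 2 of the 7 genes other than Gadd45b, both positive, where 0.918% of all genes had a positive and 0.792% a negative one. It was 2.41 for Ccnd1 (SE 0.59, adjusted p = 0.040), 1.32 for Ets2 (SE 0.32, adjusted p = 0.036) and 1.73 for Gadd45b (SE 0.43, adjusted p = 0.079 over all probes). Over all probes Ets2 alone was called. Cdkn1a had 3.28 (SE 0.91, adjusted p = 0.067) by its main probe and 2.91 (SE 0.63, adjusted p = 0.019) by ILMN_2846775. Blocked, the values were 1.99 for Ccnd1 (adjusted p = 0.087), 1.15 for Ets2 (0.074), 1.38 for Gadd45b and 2.80 for ILMN_2846775 of Cdkn1a (0.045). With median scaling the adjusted p was 0.096 for Ccnd1 and 0.43 for Ets2. Most single leave-outs of the 16 mice also ended the calls: Ccnd1 was called only without LEP_ICV_1003 or LEP_ICV_1017, and Ets2 only without LEP_SQ_1041, LEP_ICV_1003, LEP_ICV_1017 or LEP_ICV_1019. Over all leave-outs the value ran from 2.21 to 2.56 for Ccnd1, 1.07 to 1.5 for Ets2 and 1.55 to 2.10 for Gadd45b. Route went with dose, array class and the choice of LEP-ICV mice by weight loss, and these cannot be told apart.

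In vehicle-treated ob/ob livers (VEH-SQ and VEH-ICV) against B6, Gadd45g and Cdkn1a were higher and 0 members lower. These 2 of 8 genes make 25%, below the 35.4% of all genes that were higher, while 31.9% of all genes were lower. Neither gene was called in the blocked fit, where class and strain can be parted only through the LEP-ICV and LEP-ICV* arrays. Gadd45g was at 12.23 to 13.53 (VEH-SQ) and 12.31 to 13.37 (VEH-ICV), against 10.26 to 12.05 in B6 (median 11.09). The groups did not overlap, and the difference was 1.69 (SE 0.33, adjusted p = 0.00011). Its dimmer probe ILMN_2744890 differed by 0.20 (adjusted p = 0.62). Cdkn1a was at 8.20 to 10.01 (VEH-SQ) and 7.36 to 9.16 (VEH-ICV), against 5.44 to 9.89 in B6 (median 6.75). B6_2021 was the high B6 mouse, and the difference was 1.59 (SE 0.49, adjusted p = 0.0067).

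In the blocked fit the difference from B6 was 0.94 for Gadd45g (adjusted p = 0.27) and 2.15 for Cdkn1a (adjusted p = 0.10), and no member was called. That fit called 406 genes higher and 218 lower over the whole array. Set against B6, all of the high class, the 2 LEP-ICV* mice with high-background arrays were 0.52 higher for Gadd45g (SE 0.50, adjusted p = 0.63), 2.55 higher for Cdkn1a (SE 0.80, adjusted p = 0.086) and 1.18 higher for Btg1 (SE 0.22, adjusted p = 0.0088), while Ccnd1 differed by -1.79 (SE 0.47, adjusted p = 0.043). For Ccnd1 the vehicle-treated groups differed from B6 by -0.61 (SE 0.32, adjusted p = 0.094). With median scaling the median of all genes in this comparison was -0.65, and the difference was 1.09 for Gadd45g (adjusted p = 0.0038), 0.72 for Cdkn1a (adjusted p = 0.23) and -1.34 for Ccnd1 (adjusted p = 0.00026).

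Against B6, LEP-ICV livers were higher in 5 of the 7 genes other than Gadd45b and lower in 0, where 24.4% of all genes were higher and 18.4% lower. B6 shares no mouse with the vehicle groups, but the LEP-ICV mice are those of the comparisons above. Cdkn1a was 9.45-fold higher (difference 3.24, SE 0.59, adjusted p = 2e-04), Gadd45g 4.50-fold (2.17, SE 0.39, adjusted p = 2e-04), Ets2 2.73-fold (1.45, SE 0.21, adjusted p = 1.4e-05), Gadd45b at least 2.10-fold (1.57, SE 0.28, adjusted p = 0.00035 over all probes), Ccnd1 2.51-fold (1.33, SE 0.38, adjusted p = 0.0079) and Btg1 1.68-fold (0.75, SE 0.23, adjusted p = 0.012). In the blocked fit 4 of the 7 were higher, where 1234 of the 7953 genes were higher and 744 lower. Ccnd1 (0.91, adjusted p = 0.10) was not called there. The authors' scale gave 0.20 for Gadd45b in LEP-ICV against B6 (adjusted p = 0.0024), below that bound. Btg1 did not hold across probes and settings: ILMN_2705119 was called lower (difference -2.16, adjusted p = 0.022), ILMN_2866185 differed by -0.07 (adjusted p = 0.88), the mean of the probes by -0.49 (adjusted p = 0.31), and the brightest probe by 0.37 with median scaling (adjusted p = 0.47) and 0.64 without LEP_ICV_1014 (adjusted p = 0.051). LEP-SQ livers were higher than B6 in Btg1 alone and lower in 0 of the 8 genes, where 5.03% of all genes were higher and 2.25% lower. Btg1 was at 12.42, 12.42, 12.34 and 12.78 in LEP-SQ, against 11.06 to 11.87 in B6 (median 11.53), a difference of 0.97 with no overlap (SE 0.23, adjusted p = 0.012). All these arrays were of the high class, and on that class alone it was 0.97 (adjusted p = 0.0037). Without LEP_SQ_1041 it was 0.87 (adjusted p = 0.060), and with median scaling 0.84 (adjusted p = 0.25). The other Btg1 probes differed by 0.23 (ILMN_2866185, adjusted p = 0.75) and 0.09 (ILMN_2705119, adjusted p = 0.96), and the mean of the probes by 0.43 (adjusted p = 0.59).

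Probes of 1 gene did not always move together. For Btg1 in LEP-SQ against VEH-SQ the brightest probe differed by 0.56 (adjusted p = 0.075), ILMN_2866185 by 1.17 (adjusted p = 0.013) and the dim ILMN_2705119 by 3.54, at least 4.27-fold (adjusted p = 0.0039). In vehicle ob/ob against B6 the same probes of Btg1 differed by 0.25 (adjusted p = 0.25), -1.17 (adjusted p = 0.00052) and -3.53, at least 3.72-fold lower (adjusted p = 3.7e-05). ILMN_2705119 was detected in 4 of 4 LEP-SQ and 6 of 6 B6 mice and in no VEH-SQ or VEH-ICV mouse. In LEP-ICV* it was at 9.35 and 8.85 on the 2 high-background arrays, and at 5.44 and 5.32 on the low-background ones. Blocked, its differences were 0.81 in LEP-SQ against VEH-SQ and -0.79 in vehicle ob/ob against B6, and neither was called.

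Ccng1 showed the same split. The probe that stands for Ccng1 was at 9.15 to 9.59 in LEP-SQ, 9.25 to 9.63 in VEH-SQ and 8.95 to 9.41 in B6, and was not called in any of the 9 tests. The dim ILMN_2710229 was detected in every LEP-SQ and B6 mouse and in no VEH-SQ or VEH-ICV mouse, and it was at least 2.35-fold higher in LEP-SQ than in VEH-SQ (adjusted p = 0.012) and at least 2.61-fold lower in vehicle ob/ob than in B6 (adjusted p = 3.7e-05). Blocked, its difference in LEP-SQ against VEH-SQ was -0.25 (adjusted p = 0.94). The dim Ccnd1 probe ILMN_2669793 was detected on 8 arrays and correlated weakly with the first (r = 0.325 over 26 arrays). It differed by 1.22 in LEP-SQ against VEH-SQ (adjusted p = 0.035, blocked 0.63 and adjusted p = 0.85) and by -0.81 in vehicle ob/ob against B6 (adjusted p = 0.043, blocked -0.21 and adjusted p = 0.85). The 2 tested probes of Cdkn1a and those of Gadd45a ran together (r = 0.935 and 0.809), and those of Gadd45g less so (r = 0.679).

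**Figure D4:**
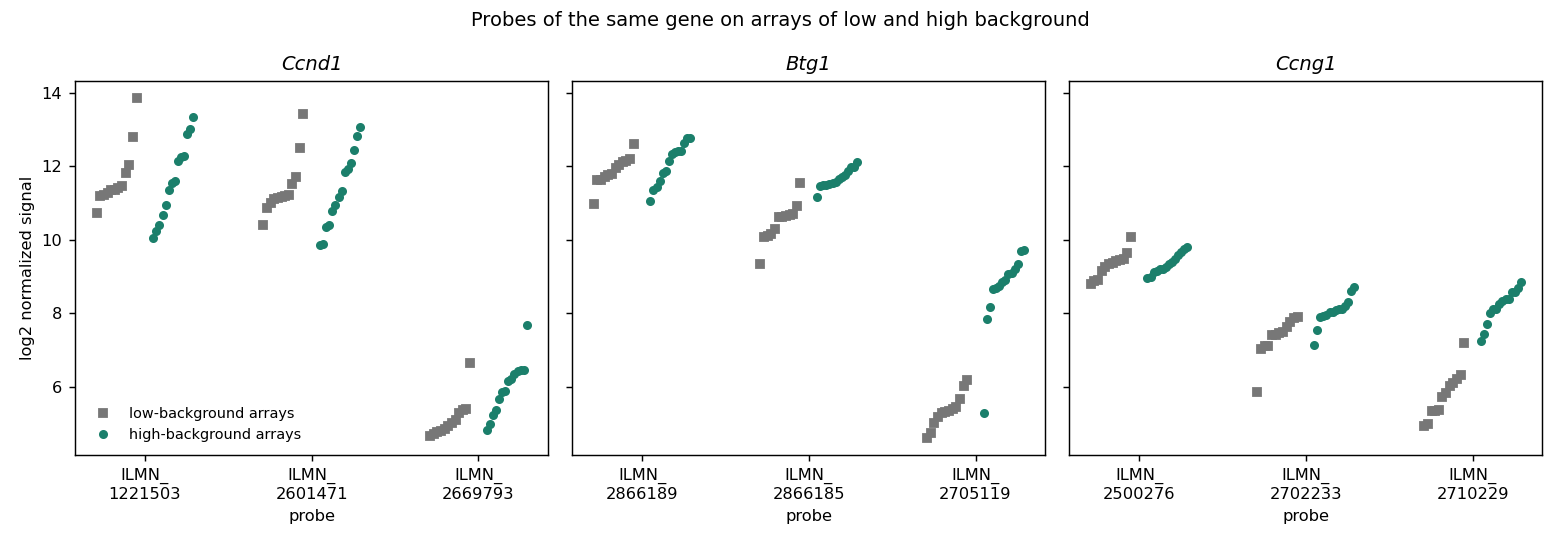
Log2 normalized signal (y axis) of each tested probe of Ccnd1, Btg1 and Ccng1 (x axis) on the 12 low-background (squares) and 14 high-background arrays (circles), sorted within each class. The dim probes ILMN_2705119 of Btg1 and ILMN_2710229 of Ccng1 lie higher on high-background arrays, except ILMN_2705119 on 1 of them, while both bright Ccnd1 probes overlap.

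Myc was not detected on any of the 26 arrays by either of its probes, whose levels ran from 4.62 to 6.22 and from 4.48 to 4.86. Btg2 was not detected on any array (4.58 to 5.05), nor was ILMN_2745073 of Btg1, and ILMN_2846776 of Cdkn1a was detected in LEP_ICV_1017 only. At this signal over background no change of Myc or Btg2 could be measured in either direction.

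Genes around the members were read from lists by role, beside the shares of all genes given above (13.5% higher and 11.5% lower in LEP-ICV against VEH-ICV, 19.1% and 21% in LEP-SQ against VEH-SQ). Of 22 immediate early genes 15 were tested, and in LEP-ICV against VEH-ICV 6 were higher and 1 lower (median 0.99). Atf3, a stress-induced repressor of the ATF family, was 2.81 higher (SE 0.36, adjusted p = 1.2e-05), the survival gene Ier3 1.58 (SE 0.37, adjusted p = 0.0044) and the ERK phosphatase Dusp6 1.41 (SE 0.23, adjusted p = 0.00019). Zfp36, which destabilises AU-rich messages, differed by -1.59 (SE 0.31, adjusted p = 0.0010). In the blocked fit 4 of these 15 genes were higher and 1 lower. Against LEP-ICV* 3 of the 15 were higher and 1 lower, and these were again Atf3 (2.13), Ier3 (2.19), Dusp6 (1.27) and Zfp36 (-1.34). In LEP-SQ against VEH-SQ 3 were higher, Fos by 1.43 (adjusted p = 0.016), Junb by 1.23 (adjusted p = 0.0087) and Dusp6 by 0.59 (adjusted p = 0.042), and none of them in the blocked fit. The study had listed Dusp6 and Zfp36 from its regression on weight loss in these arrays, so their calls are not independent evidence.

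Of 24 genes of S phase and mitosis 16 were tested, and 6 were higher and 0 lower in LEP-ICV than in VEH-ICV (median 1.10). The ribonucleotide reductase subunit Rrm1 differed by 1.71 (adjusted p = 0.014), the spindle protein Nusap1 by 1.63 (adjusted p = 0.014), the mitotic kinase Aurka by 1.60 (adjusted p = 0.031) and the microtubule regulator Stmn1 by 1.58 (adjusted p = 0.00044). The blocked fit called 2 of the 16, Stmn1 and Pcna. In LEP-SQ against VEH-SQ 3 of them were higher and 5 lower, and 0 in the blocked fit. Of 30 cyclins, kinases and inhibitors other than the members 14 were tested, and 1 was higher in LEP-ICV than in VEH-ICV (Cdk5, by 0.88, adjusted p = 0.019).

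Of 20 MYC partners and growth genes 17 were tested, and 5 were higher and 2 lower in LEP-ICV than in VEH-ICV, although Myc itself was not detected. The nucleolar protein Npm1 differed by 2.19 (adjusted p = 0.0025), the polyamine enzyme Odc1 by 1.82 (adjusted p = 0.0025), the nucleolar methylase Fbl by 1.18 (adjusted p = 0.0016) and the MAX partner Mxi1 by -1.50 (adjusted p = 0.016). Of 25 p53 targets other than the members 16 were tested, and 1 was higher (Zmat3, 1.30, adjusted p = 0.033) and 1 lower (the cell death gene Bbc3, -1.60, adjusted p = 0.0045), with a median of 0.34. Shares over all genes in this comparison were 13.5% higher and 11.5% lower. Among 7 tested partners of GADD45 and stress kinases 0 were higher and 2 lower (Mapk8 by -0.89, adjusted p = 0.016, and Map2k3 by -0.71, adjusted p = 0.024). Of 7 tested ETS factors other than Ets2, Elf1 was higher (1.49, adjusted p = 0.013), and of 7 tested BTG, TOB and CCR4-NOT genes none was called. The blocked fit of LEP-ICV against VEH-ICV called 5 of the MYC list higher and 0 lower (Mxi1 -0.75, adjusted p = 0.18), Bbc3 alone of the p53 targets (-1.29, adjusted p = 0.039), and none of the cyclin, stress kinase or ETS lists, so that Zmat3, Cdk5, Mapk8, Map2k3 and Elf1 were not called. In the blocked fit of LEP-SQ against VEH-SQ no gene of any of these lists was called.

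The patterns most like those of the members were sought over the 26 arrays among the genes with a tested probe, by Pearson's r. For Ccnd1 they were Cd44 (r = 0.834) and Rpl13a (0.825), for Ets2 Fbp2 (0.888) and Asns (0.885), for Gadd45b Sh3pxd2b (0.861) and Laptm5 (0.842), and for Cdkn1a Tmem43 (0.829) and Anxa2 (0.823). For Gadd45a they were Calm2 (0.863) and Matr3 (0.858), for Gadd45g Ncl (0.888) and Hypk (0.884), for Btg1 Srp14 (0.912) and Dazap2 (0.886), and for Ccng1 Septin2 (0.787) and Igsf11 (0.772). After the mean of each background class was taken out, these values lay between 0.772 and 0.925. They describe these arrays, which share groups and background.

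On the 20 ob/ob arrays, the slope on weight loss was called positive for 3 of the 7 genes other than Gadd45b and negative for 0, where 10.9% of all genes had a positive and 9.39% a negative one. These were Ccnd1 (adjusted p = 0.0035), Ets2 (adjusted p = 0.0020) and Gadd45a (adjusted p = 0.047), and the blocked fit called all but Gadd45a (adjusted p = 0.25). Over the whole array the blocked slope was called positive for 782 genes and negative for 531. Gadd45b had an adjusted p of 0.011 over all probes. Each mouse stood at its group's mean in the study's text, and LEP-ICV* mice, for which no mean was at hand, at the middle of the stated range, so the slope reads the same group levels again. The study had listed Ets2 from this regression on these arrays, so its slope is not independent evidence.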

How the data were processed

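RNA from 26 livers was measured on 1 MouseRef-8 v2.0 array (Illumina) per mouse, and groups were taken from the sample labels. The authors deposited probe intensities from BeadStudio 2.0 without normalization, each with a column headed as a detection p-value. Since the deposited p-value column rises with the signal, it was read as a score and 1 minus it was used as the detection p. They also deposited log2 values made with lumi (variance stabilization, robust spline), of unstated version, which served as an alternative. Here neqc of limma 3.58.1 (R 4.3.3, offset 16) corrected the intensities for background and normalized them by quantiles. Probes detected at p under 0.01 on at least 4 arrays were tested in 1 limma model of 6 groups, which was checked on simulated data. The simulated arrays held no difference between background classes, so that check does not cover comparisons across the classes. Of all probes, 23978 had 1 symbol in the platform annotation, 0 several and 1719 none. Precision is limited by how many arrays a group has. The labels name no chip or scan date, so background class was the batch examined.

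The members, lists and comparisons were chosen with earlier results of these data known. Described were the tested probes of the 10 genes (mainly the brightest of each gene, the others in part), up to 4 called genes with the largest change per list and, for each member, the 2 genes with the highest r. Alternatives were other normalizations and filters, the class as a block or 1 class alone, fewer groups, mean probes, and leaving out each mouse. Replacing VEH-SQ or vehicle ob/ob by high-background LEP-ICV* arrays was added after seeing the data.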

Additional observations from a re-analysis of the deposited data

Results flagged for a closer look

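A few values of the members stood apart within their group by Dixon's ratio, in 7 of 102 groups of values tested, where chance alone flags about 1 in 20. Gadd45b in LEP_ICV_1017 was at 5.94, against 7.29 to 7.56 in the other LEP-ICV mice. Gadd45b in LEP_ICVN_1004 was at 6.25, against 5.17 to 5.28 in the other LEP-ICV* mice, and was not detected there. B6_2021 was high for probe ILMN_2846775 of Cdkn1a (7.94, next 6.34) and low for probes ILMN_2702233 (7.14, next 7.90) and ILMN_2710229 (7.26, next 8.26) of Ccng1. Probe ILMN_2947568 of Gadd45a was low in VEH_SQ_1034 (7.20, next 7.86), where neither Gadd45a probe was detected, and probe ILMN_2744890 of Gadd45g was low in VEH_ICV_1002 (7.49, next 8.05). Within their groups, B6_2021 (9201) and VEH_SQ_1034 (6786) detected the fewest probes. LEP_ICV_1017 (11117) and VEH_ICV_1002 (7992) detected the most, and LEP_ICVN_1004 (8233) lay between. The part of detection in these values was not tested.

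The test of the difference between routes was passed by Ccnd1 (2.41, and 2.34 by ILMN_2601471), Ets2 (1.32), Gadd45b (1.73, not called over all probes) and probe ILMN_2846775 of Cdkn1a (2.91). LEP-SQ and VEH-SQ arrays lie in different background classes, so class and route cannot be told apart there. Nor can route be told apart from dose (1.5 µg/d central, 10 µg/d under the skin) or weight loss. LEP-ICV mice were set apart by their weight loss and LEP-SQ mice were not.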

How the results depend on the processing

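The number of members called in each comparison, Gadd45b included, changed as follows. Gadd45b passed the filter through LEP-ICV, so its calls there with the filter are not support. Without Gadd45b the main counts were 4 in LEP-ICV against VEH-ICV, 2 against LEP-ICV* and 5 against B6. They were 2 for the route difference and 3 for the slope. In LEP-SQ against VEH-SQ (1 called) it was 2 with median scaling and with the authors' log2 values, 3 with the mean of a gene's probes and with the compared groups only, and 0 without a filter, with the background block and with LEP-ICV* arrays in place of VEH-SQ. In LEP-ICV against VEH-ICV (5 called) it was 3 without a filter, blocked, with the compared groups only and on low-background arrays, and Ccnd1, Ets2 and Gadd45b were those 3 each time. In LEP-ICV against LEP-ICV* (3 called) it was 0 with the compared groups only and on low-background arrays. In vehicle ob/ob against B6 (2 called) it was 5 with median scaling and with mean probes, 1 with the authors' values and 0 blocked. In LEP-SQ against B6 (1 called) it was 0 with median scaling and mean probes and 2 with the compared groups only. For the route difference (3 called) it was 0 with median scaling and blocked and 1 without a filter, and for the slope on weight loss (4 called) 1 on high-background arrays.

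Leaving out single mice gave 0 to 1 in LEP-SQ against VEH-SQ, 3 to 7 in LEP-ICV against VEH-ICV, 0 to 1 in LEP-ICV* against VEH-ICV, 3 throughout in LEP-ICV against LEP-ICV*, 2 to 3 in vehicle ob/ob against B6, 0 to 1 in LEP-SQ against B6, 5 to 7 in LEP-ICV against B6, 0 to 3 for the route difference and 3 to 4 for the slope. The 7 in LEP-ICV against VEH-ICV came without LEP_ICV_1003, and the 3 without VEH_ICV_1010, LEP_ICV_1014 or LEP_ICV_1017.

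Signs turned in few cases, and the cause was not tested. With mean probes Btg1 was -0.49 in LEP-ICV against B6 and -1.48 in vehicle ob/ob against B6, where Ccng1 was at -1. Median scaling gave -0.82 for Ccng1 and -0.54 for Ets2 in vehicle ob/ob against B6, where it moved the median of all genes to -0.65. That median was 0.56 in LEP-SQ against VEH-SQ, 0.47 in LEP-ICV against VEH-ICV and 0.31 in LEP-ICV* against VEH-ICV under median scaling. With LEP-ICV* arrays in place of VEH-SQ, LEP-SQ differed by -0.21 (ILMN_2866185) and -0.23 (ILMN_2705119) for Btg1 and -0.44 (ILMN_2710229) for Ccng1, the last at -0.25 blocked. With these arrays in place of vehicle ob/ob, the differences from B6 were 0.44 (ILMN_2866185) and 0.32 (ILMN_2705119) for Btg1, 0.10 (ILMN_2669793) for Ccnd1 and 0.18 (ILMN_2710229) for Ccng1. Of the 518 repeats of the 25 called differences, 399 stayed called in the same direction, 118 did not pass and 1 turned sign (Btg1 in LEP-ICV against B6, above). These include the differences of Gadd45b, whose calls with the filter are not support. The repeats use the same mice, many of them all but 1, so the tally is not independent evidence. No paired analysis was possible because no mouse number occurs in more than 1 group.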
